A study of Mus musculus with 2 samples.

Results

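The microRNA genes Mir214, Mir199b, Mir199a-2 and Mir199a-1, which lie inside or opposite the dynamin genes, were examined in the facial prominences of the mouse embryo. They were chosen by symbol, as the Mir199 genes and Mir214, and are 4 of the 1973 microRNA loci in the count tables. Small RNA under the labelled size limit was sequenced from total RNA of healthy B6NCrl embryos at 11.5 days of development, with no treatment or altered genotype named in the labels. The study has 1 group and 2 replicates that its labels number as biological. Replicate 1 pooled males and females from 109 embryos and replicate 2 from 88, under a common donor entry. The facial prominences are swellings of mesenchyme, largely from the neural crest, covered by epithelium, so each library mixes several cell types.

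A microRNA is cut from a hairpin, and the strand of either arm (5p or 3p) can guide silencing of messenger RNAs that pair with its seed, bases 2 to 8. Mir199a-2 and Mir214 are carried by Dnm3os, a non-coding RNA transcribed opposite the dynamin gene Dnm3. This RNA is known from mesenchyme of the embryonic face, limbs and somites, is needed for normal skeletal growth in mice, and is a target of the mesenchymal transcription factor Twist1. Mir199b and Mir199a-1 lie opposite Dnm1 and Dnm2. Dynamins pinch vesicles from membranes, and are encoded on the other strand from the microRNAs.

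The mature sequences come first, since they set which reads can be told apart. All 4 hairpins were found in the RefSeq table (GRCm38.p6), with 7 mature arms. Each is written 5′ to 3′ with the seed in capitals.
miR-214-5p: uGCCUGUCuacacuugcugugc
miR-214-3p: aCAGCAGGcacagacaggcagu
miR-199a-5p, of Mir199a-1 and Mir199a-2: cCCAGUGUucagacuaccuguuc
miR-199a-3p, of Mir199a-1 and Mir199a-2: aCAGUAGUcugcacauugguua
miR-199b-3p: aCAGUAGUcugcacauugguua

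The 3p arms of the 3 Mir199 loci were identical over all 22 bases, so they form 1 seed group. miR-199a-5p has a different seed and was identical in Mir199a-1 and Mir199a-2. The seed of miR-214-3p differs from that of miR-199a-3p at 2 of 7 bases (U4C and U7G, counted from 1 at the seed's first base, with the miR-199a-3p base first). Among all mature sequences of the table, the seed of miR-214-3p recurred in miR-761, and the other member seeds recurred in no locus outside the 4. Mir761 had 0 counts in both libraries, so Mir214 was the locus with counts that carried this seed. A count of 0 allows a level of up to 1.55 CPM (sense counts scaled to a microRNA total of 1000000) in replicate 1 and 1.29 CPM in replicate 2. The mature sequence of miR-761 is given to show the shared seed.
miR-761: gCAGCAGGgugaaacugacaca

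The 4 hairpins are shown in full, with the listed mature arms in capitals, to show where the Mir199 copies part from each other.
Mir214: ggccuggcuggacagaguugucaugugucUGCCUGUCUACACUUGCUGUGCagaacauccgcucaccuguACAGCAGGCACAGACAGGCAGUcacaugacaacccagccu
Mir199b: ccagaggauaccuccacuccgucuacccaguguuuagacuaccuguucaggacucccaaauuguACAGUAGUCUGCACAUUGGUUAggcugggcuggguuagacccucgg
Mir199a-2: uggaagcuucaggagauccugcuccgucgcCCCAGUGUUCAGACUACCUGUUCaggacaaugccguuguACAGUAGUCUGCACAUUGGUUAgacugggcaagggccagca
Mir199a-1: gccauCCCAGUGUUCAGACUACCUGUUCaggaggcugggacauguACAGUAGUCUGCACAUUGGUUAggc

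The Mir199b hairpin holds a stretch on its 5p side that differs from miR-199a-5p by 1 of 23 bases. The substitution is C10U, counted from 1 at the 5′ end of miR-199a-5p with its base first. The stretch, with that base in capitals, starts at base 26 of the hairpin and occurred in no other hairpin.
Mir199b, 5p side: cccaguguuUagacuaccuguuc

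The 4 loci lie on 3 chromosomes (GRCm38, the mm10 assembly). Mir199a-2 (ENSMUSG00000070126.1, chr1:162217814-162217923, plus strand) begins 191 bases after the start of Dnm3os. Mir214 (ENSMUSG00000065516.1, chr1:162223368-162223477, plus strand) begins 5745 bases after that start, and 5444 bases separate the pair. Both overlap an exon in every annotated Dnm3os transcript that spans them (3 transcripts for Mir199a-2 and 2 for Mir214). On the minus strand, both lie in introns of Dnm3 in the 4 transcripts that span them. Mir199b (ENSMUSG00000092807.1, chr2:32318460-32318569, plus strand) lies opposite an intron of Dnm1, with no exon overlap in 10 transcripts. Mir199a-1 (ENSMUSG00000065547.1, chr9:21496495-21496564, minus strand) lies likewise opposite an intron of Dnm2, with no exon overlap in 10 transcripts. The only other locus of the tables within these genes was Gm23363, upstream of Mir199b in Dnm1, with 0 and 3 counts.

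By reads placed at 1 position, Mir214 was among the microRNA genes with the most counts in the facial prominences, and the 3 Mir199 loci followed at much lower counts. Mir214 had 55376 counts in replicate 1 and 73026 in replicate 2, or 28519 and 31478 CPM. Its mean was 29999 ± 2090 CPM (SD, n = 2), and its share of all sense counts at microRNA loci was 2.85% and 3.15%. The pools lay close together, and Mir214 held place 8 in replicate 1 and place 7 in replicate 2. These places leave out reads placed at several positions, so loci with shared arms may stand too low in the order.

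Mir199b, the highest of the Mir199 loci, had 2741 and 3038 counts, or 1411.6 and 1309.5 CPM. Its mean of 1361 ± 72.2 CPM put it at place 96. Mir199a-2, the neighbour of Mir214 in Dnm3os, had 399 and 552 counts, or 205 and 238 CPM, with a mean of 222 ± 23.0 CPM at place 173. Mir199a-1 had 42 and 54 counts, or 21.6 and 23.3 CPM, with a mean of 22.5 ± 1.16 CPM at place 294. The 4 means were also scaled to a library total that included reads placed at several positions, with the counts of the loci unchanged. They were then 19004 CPM for Mir214, 863 CPM for Mir199b, 140 CPM for Mir199a-2 and 14.2 CPM for Mir199a-1. Any Mir199 reads among those added to the total are not counted at the loci. The exact 95% Poisson interval of Mir199a-1 ran from 15.6 to 29.2 CPM in replicate 1 and from 17.5 to 30.4 CPM in replicate 2. Intervals cover counting error only, and in whole tissue fewer cells of a type and less RNA per cell cannot be told apart.

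**Figure D1:**
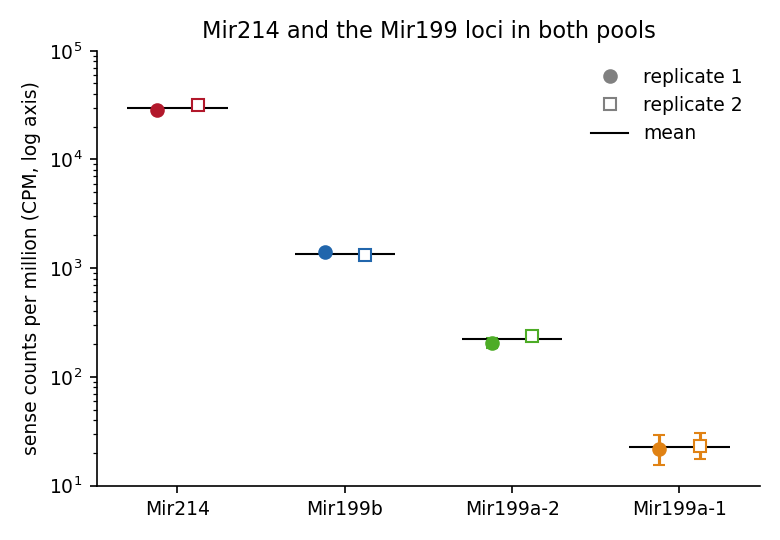
Level of each locus in both pools, as CPM on a log axis; points are libraries, bars the exact 95% Poisson interval of each count and lines the mean. Mir214 has a mean of 29999 CPM, and the Mir199 loci lie at 1361, 222 and 22.5 CPM, with the pools of each locus close together.

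All 4 loci passed the minimum of 10 counts in both libraries, which 17.8% of all loci did. With a minimum of 100 counts, Mir199a-1 fell short and the other 3 passed, beside 12.8% of all loci, and with a minimum of 1 count all 4 passed beside 28.5%. The order of the 4 was the same in both libraries. Mir214 exceeded Mir199b by a log2 ratio of 4.34 in replicate 1 and 4.59 in replicate 2 (20.2-fold and 24.0-fold). Mir199b exceeded Mir199a-2 by 2.78 and 2.46, and Mir199a-2 exceeded Mir199a-1 by 3.25 and 3.35. These are log2 ratios of counts within a library.

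The widest gap, between Mir214 and Mir199a-1, was 10.38 ± 0.03 on the log2 scale. In all 6 pairs the difference within each library was larger than the difference of either locus between the pools. The same held for 90.0% of all pairs of loci that passed the minimum of 10 counts, so this count does not set the members apart. With 2 libraries no two-sided exact test can go below p = 0.5, and none was run. A read counts once whatever the length of its hairpin, so levels were not scaled to length. Scaled to 100 bases of annotated hairpin (110 bases for 3 loci and 70 for Mir199a-1), the order of the 4 was the same.

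Together the 4 loci took 3.02% of the sense counts in replicate 1 and 3.30% in replicate 2. Mir214 supplied 94.6% and 95.2% of that sum. Among the 3 Mir199 loci, which summed to 0.164% and 0.157% of the sense counts, Mir199b supplied 86.1% and 83.4%. This share and the order of the 3 hold for reads placed at 1 position. All listed arms of Mir199a-1 and Mir199a-2 occur in other hairpins, while the 5p stretch of Mir199b occurs in none.

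Each locus had neighbours in the order of levels from which it did not differ beyond the spread between pools. Around Mir214 these were Mir322 above it (32601 ± 3030 CPM) and Mir23b and Mir30e below it (27209 ± 268 and 25858 ± 1210 CPM). Mir99b at 35253 ± 3050 CPM exceeded Mir214 by more than that spread. By distance of log2(CPM + 1) over the 2 libraries, the loci nearest to Mir214 were Mir23b (0.21), Mir322 (0.29) and Mir99b (0.33). Mir199b stood between Mir20b and Mir302b above (1468 ± 22.2 and 1392 ± 117 CPM) and Mir337 and Mir455 below (1307 ± 4.40 and 1286.5 ± 36.3 CPM). Mir199a-2 stood among Mir18b, Mir301b, Mir302c and Mir410, from 233 ± 11.9 to 213 ± 15.2 CPM. Mir199a-1 stood among Mir190b, Mir8112, the predicted locus Gm23134 and Mir216a, from 23.1 ± 2.08 to 21.3 ± 6.99 CPM. None of these last 12 neighbours differed from its member beyond the spread.

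**Figure D2:**
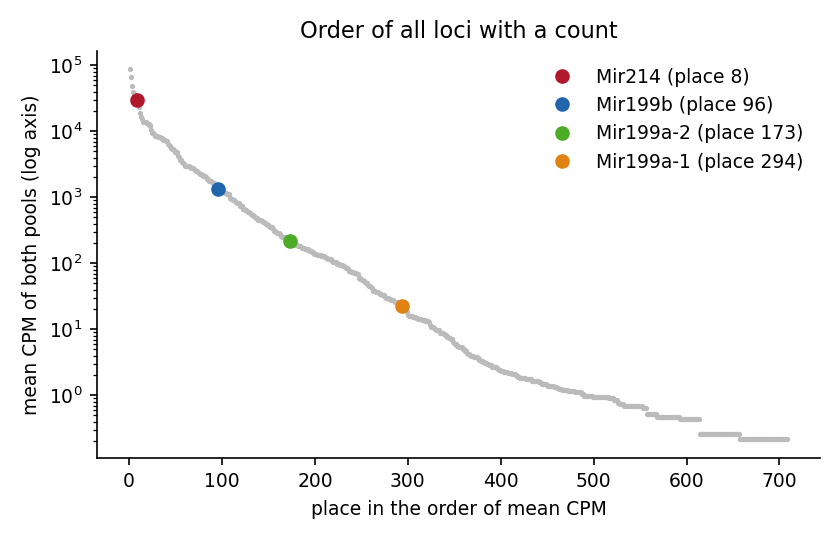
Mean CPM of the 708 loci that had any count, in order of level on a log axis, with the 4 loci in colour. Mir214 stands at place 8, Mir199b at 96, Mir199a-2 at 173 and Mir199a-1 at 294.

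Levels of the Mir199 loci rest on the reads that could be placed at 1 position, since the tables keep reads placed at several positions apart from the loci. The 4 hairpins were therefore compared in windows of 22 bases with the 2202 microRNA hairpins of the annotation. No window of Mir214 (0 of 89) occurred in another hairpin. In Mir199b, 8 of 89 windows did, in Mir199a-2 12 of 89, and in Mir199a-1 13 of 49. All of them were shared with other Mir199 loci and lay over the mature arms.

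Around the 3p arm, Mir199b shared 4 further bases before it and 3 after it with at least 1 of the other Mir199 hairpins. Mir199a-2 shared 4 before and 1 after, and Mir199a-1 shared 3 before and 3 after. Around the 5p arm, Mir199a-1 and Mir199a-2 shared 0 bases before and 4 after. A read made of a full listed arm of Mir199a-1 or Mir199a-2 thus matches another Mir199 hairpin exactly, and so does a read of the 3p arm of Mir199b. A read of the whole 5p stretch of Mir199b matches that hairpin alone exactly. The tables give 1 count per locus and do not divide it by arm.

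**Figure D3:**
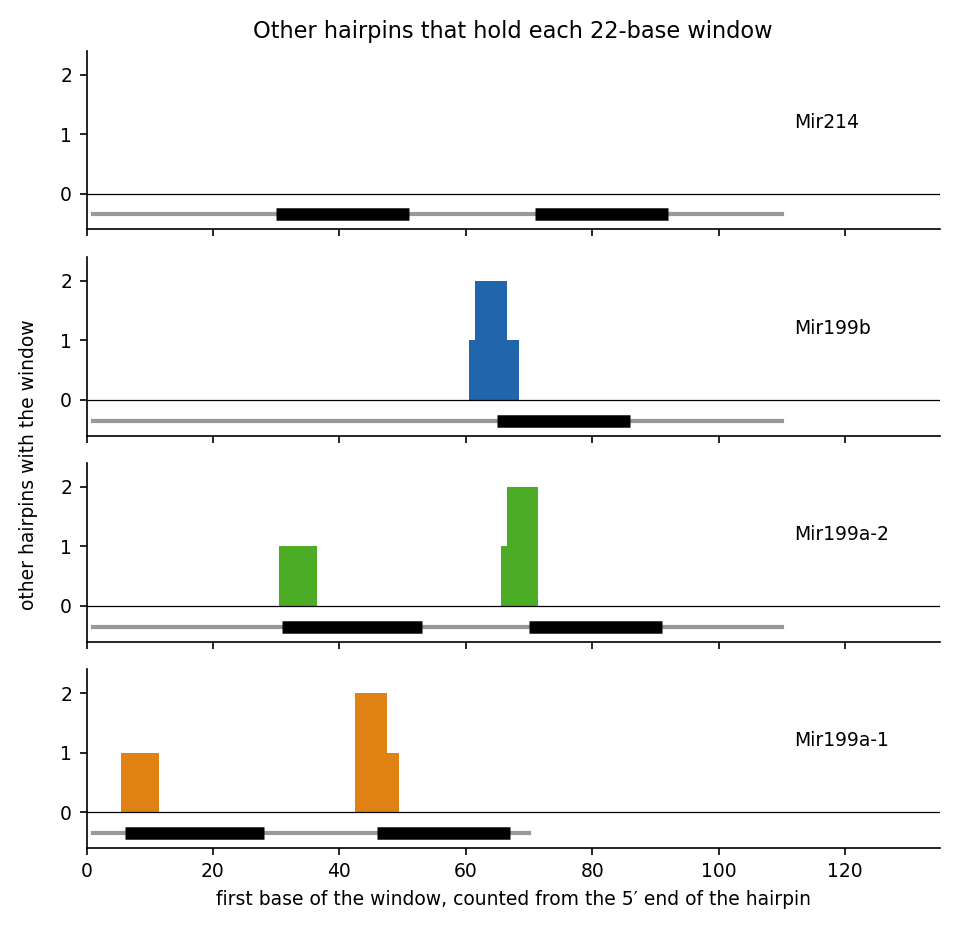
For each hairpin, the number of other microRNA hairpins that hold the 22-base window starting at each base, with the hairpin as a grey line and its listed mature arms in black below. Mir214 has 0 shared windows, Mir199b has 8, over its 3p arm, and Mir199a-2 and Mir199a-1 have 12 and 13, over both arms.

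The reads placed at several positions numbered 1081615 in replicate 1 and 1388721 in replicate 2, which is 340 and 381 times the summed Mir199 counts. How many of them came from Mir199 arms was not tested. The levels of the 3 Mir199 loci are therefore uncertain. The 5p stretch of Mir199b, which is not a listed arm, occurs in no other hairpin. The differences between Mir214 and the Mir199 loci compare a locus with distinct arms against loci whose listed arms are all shared. The part of the shared sequence in these differences was not tested.

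The same sharing was read across the 916 loci with a mature sequence in the table. Of these, 813 had no listed arm in another hairpin, and 33.7% of them reached 10 counts in both libraries. Mir214 belonged here, and 7 loci of this class had a higher mean. A further 56 loci had some arms shared, with 66.1% reaching 10 counts. In 47 loci all listed arms were shared, and 19.1% (9 loci) reached 10 counts, among them the 3 Mir199 loci. Mir199b had the highest level of those 47, and 2 of the 47 stood above Mir199a-2. The class of Mir199b rests on its 3p arm, the only arm listed for it. With its 5p stretch counted as an arm, Mir199b would fall in the class with some arms shared. This is a description of the loci, which share sequence and are not replicates.

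**Figure D4:**
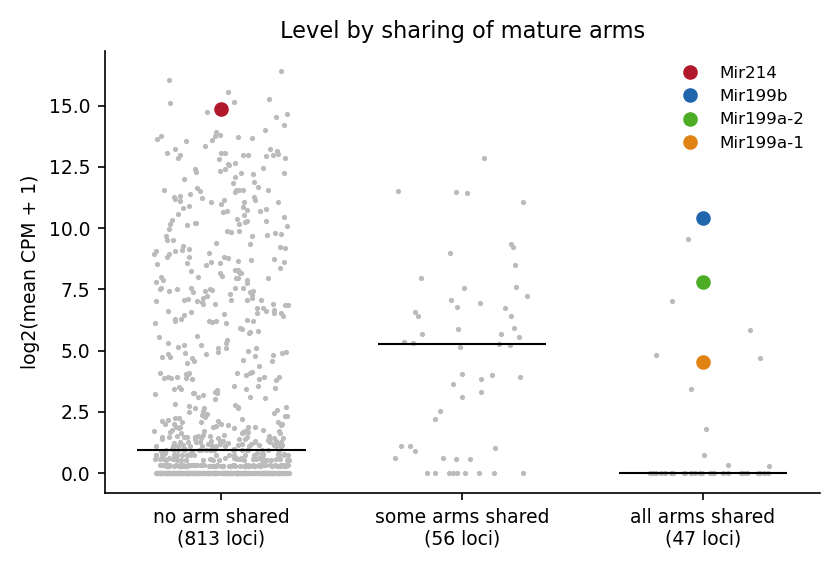
Level of 916 loci as log2(mean CPM + 1), by whether their listed mature arms occur in another hairpin; lines are class medians. Mir214 is in the class with no shared arm (813 loci) and the 3 Mir199 loci are in the class with all listed arms shared (47 loci), where Mir199b is the highest point. Mir199b is classed by its 3p arm alone.

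Numbered copies of other families also differed in level, by reads placed at 1 position. Of 45 families of loci whose symbols differ in a final number, 17 had a copy that averaged 100 counts or more, and Mir199a was at place 8 by summed level with 244 CPM. The first 5 were Mir92 (7826 CPM), Mir125b (3412 CPM), Mir16 (3396 CPM), Mir181b (2967 CPM) and Mir181a (2470 CPM). Every copy in these 5 families has some but not all listed arms in another hairpin. Reads placed at several positions are left out of these levels, and the part of this in the differences between copies was not tested. In Mir92 the higher copy was Mir92-1, of the Mir17 cluster, at 7326 CPM against 499.7 CPM for Mir92-2. In Mir199a the higher copy was Mir199a-2, of Dnm3os, at 222 CPM against 22.5 CPM for Mir199a-1, a ratio of 9.50 in replicate 1 and 10.2 in replicate 2.

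Mir214 and Mir199a-2, which both lie in Dnm3os, differed in their counts of reads placed at 1 position. By these counts Mir214 exceeded Mir199a-2 by 139-fold in replicate 1 and 132-fold in replicate 2. Both listed arms of Mir199a-2 occur in other hairpins and neither arm of Mir214 does, and the part of this in the ratio was not tested. Among 97 pairs of neighbouring loci on 1 strand within 10 kb of each other, each with at least 10 counts in both libraries, the median size of the log2 ratio of mean levels was 2.42. The Dnm3os pair was in place 8 by that measure, at 7.08. The widest gaps were between Mir411 and Mir1197 (9.63), Mir20a and Mir19b-1 (9.27), and Mir99a and Mirlet7c-1 (9.16). Mir19b-1 and Mirlet7c-1, the lower loci of their pairs, have some listed arms in other hairpins, while Mir411 and Mir1197 have none. The part of this in the gaps was not tested.

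The start of Dnm3os is shown because Dnm3os holds both Mir199a-2 and Mir214. The window runs from 250 bases before to 50 after the start (RefSeq, GRCm38.p6, chr1:162217373-162217672, plus strand), with each match to the E-box letters CANNTG in capitals. Basic helix-loop-helix factors such as Twist1 bind E-boxes.
Dnm3os start: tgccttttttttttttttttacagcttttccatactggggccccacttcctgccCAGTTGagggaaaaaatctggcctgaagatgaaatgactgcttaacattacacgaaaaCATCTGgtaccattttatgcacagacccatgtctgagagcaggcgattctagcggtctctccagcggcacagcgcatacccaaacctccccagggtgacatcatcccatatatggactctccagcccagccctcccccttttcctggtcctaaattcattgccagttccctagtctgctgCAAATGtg

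CANNTG, which reads the same on both strands, occurred 3 times, and 72.3% of the 32851 promoter windows in the table held it at least once. Among the 3 was CATCTG, beginning 138 bases before the start. CATCTG on either strand occurred in 17.2% of the windows and overlaps CANNTG by construction. These matches describe letters in the window and no binding was measured.

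Transcripts of Dnm1, Dnm2 or Dnm3 would be read on the strand opposite the microRNA. On that strand Mir199b, Mir199a-2 and Mir199a-1 had 0 counts in both libraries, and Mir214 had 0 in replicate 1 and 2 in replicate 2. Over all loci the opposite strand held 3.03% and 3.24% of the stranded counts. Apart from those 2, the counts at the 4 loci lay on the microRNA strand, within the limit of 1.55 and 1.29 CPM that a count of 0 allows. No annotated dynamin exon overlaps the 4 loci, and only small RNA was sequenced. Counts on the opposite strand therefore do not measure expression of the dynamin genes.

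The pools were then compared, as a measure of how far each level repeats. Mir214 was 1.10-fold higher in replicate 2, a log2 ratio of 0.14 with an exact (Clopper-Pearson) 95% interval of 0.13 to 0.16. Mir199b had a log2 ratio of -0.11 (-0.18 to -0.03) and so was lower in replicate 2. Mir199a-2 had 0.21 (0.02 to 0.40) and Mir199a-1 had 0.11 (-0.50 to 0.72), an interval that includes 0. None of the 4 reached 2-fold, and 1.95% of the 257 loci whose counts averaged 100 or more did. Mir199a-1, which averaged 48 counts, is not one of these 257. The median size of the log2 ratio among those 257 loci was 0.14, and 48.2% of them had a larger one than Mir214, 59.1% than Mir199b and 31.1% than Mir199a-2.

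Mir214 and Mir199b moved in opposite directions by more than counting error. The difference of their log2 ratios between pools was 0.25, with an interval of 0.17 to 0.33 from counting alone. With the edgeR biological coefficient of variation of 16.5% added, a normal approximation gave -0.69 to 1.19, which includes 0. The Dnm3os pair differed by -0.07 (-0.26 to 0.12 from counting alone).

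**Figure D5:**
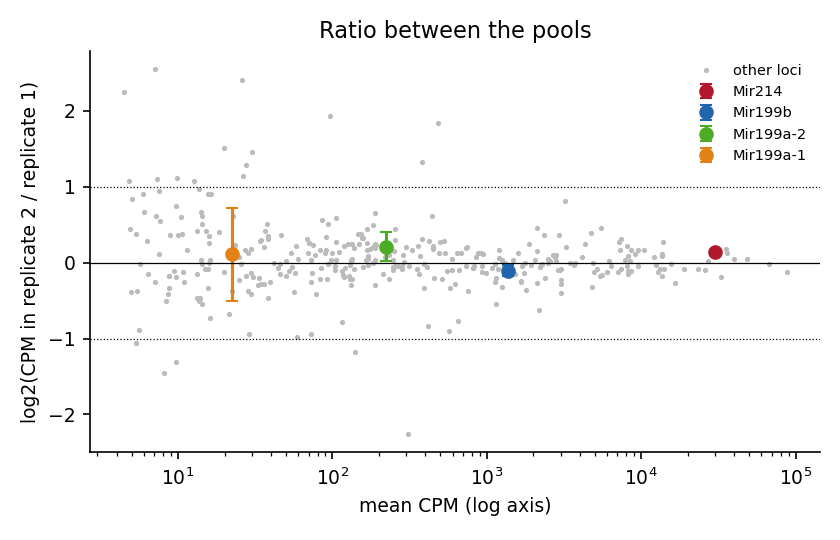
Log2 ratio of CPM in replicate 2 to replicate 1 against mean CPM on a log axis, for loci that averaged 10 counts or more; the 4 loci carry exact 95% intervals and dotted lines mark 2-fold. Mir214, Mir199b, Mir199a-2 and Mir199a-1 lie at 0.14, -0.11, 0.21 and 0.11, between the dotted lines.

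Other loci known from mesenchyme were set beside the members. Of 13 listed loci 12 were matched, and 10 of them reached 10 counts in both libraries. The median level of the 12 was 1439 CPM, against 5.50 CPM over the 708 loci that had any count and 192 CPM over the 351 loci that reached 10 counts in both libraries. The list was chosen with earlier results of these data known, so its median is a description only. None of the 12 stood above Mir214. The highest were Mir23b, Mir143 of smooth muscle and mesenchyme (13677 ± 719 CPM) and the cartilage locus Mir140 (8587 ± 460 CPM). Mir21a, a locus induced in fibroblasts and many growing tissues, had 8189 ± 618 CPM, Mir22 had 3649 ± 59.3 CPM and Mir27b had 2485 ± 64.5 CPM. These 6 exceeded Mir199b in mean level, and Mir31 and Mir145a, at 392 ± 63.4 and 255 ± 54.6 CPM, stood between Mir199b and Mir199a-2. The matrix-regulating Mir29c and Mir29a had 117 ± 9.00 and 73.3 ± 4.88 CPM, and the copies Mir29b-1 and Mir29b-2 had at most 4 counts in a library. Mir29b-1 and Mir29b-2 have some listed arms in other hairpins, while Mir29c and Mir29a have none. Reads placed at several positions are left out, so the counts of Mir29b-1 and Mir29b-2 may be too low. Between the pools, 5 of the listed loci were higher and 6 lower in replicate 2, and Mir29b-2 had 0 counts there.

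Markers of other cell types were present as well. The 7 epithelial loci summed to 33090 and 29540 CPM in replicates 1 and 2, near the level of Mir214 alone. Endothelial Mir126a had 39040 and 40420 CPM. The erythroid loci summed to 264 and 593 CPM and the 5 muscle loci to 628 and 1494 CPM. Within both lists the log2 ratios of replicate 2 to replicate 1 differed by locus. They were 1.33 for Mir451a and -0.02 for Mir144. In muscle they were 1.93 for Mir208a, 1.84 for Mir208b, 1.51 for Mir499, 0.62 for Mir206 and -0.0 for Mir133b. The 3 matched leukocyte loci summed to 564 and 672 CPM. The 6 matched neural loci summed to 1415 and 1142 CPM, but only 2 of them passed the count minimum in both libraries. Most of the neural sum was Mir137, with a mean of 1246 CPM. Mir9-3 had a mean of 27.3 CPM, and Mir124a-3 was at 0. All listed arms of Mir9-3 and of its copy Mir9-2 occur in other hairpins, and reads placed at several positions are left out of their levels. For the Mir124a copies the sharing of arms was not analysed. Neural loci may therefore stand too low here. The part of these cell types in the member ratios between pools was not tested.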

How the data were processed

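For each library the authors deposited a table of raw read counts by microRNA gene (mm10, GENCODE M4), per the file that accompanies each table; aligner and counter are not given in the sources used here. The sense column was used. Lines that name no gene (59.2% and 65.8% of reads) were left out of totals, which were 1941745 and 2319881 sense counts. Symbols and positions came from GENCODE M21 (same assembly): 1894 of 1973 identifiers matched, and the rest held 4 counts. Listed loci without a match were not analysed here.

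CPM was scaled to the sense total. Windows were searched on both strands, and full mature arms on the same strand, in annotated hairpins; a genome was not used here, so sharing elsewhere was not analysed. Members, lists and pairs were chosen with earlier results of these data known. Named loci were the members, the mesenchyme list, all loci in the dynamin genes, the 2 loci on each side of a member in level, the 3 nearest to Mir214 and 5 copy families. The lists were mesenchyme, epithelium, endothelium, erythroid, leukocyte, neural and muscle. The labels number the pools as separate biological replicates. No molecular identifiers are named. Library factors and dispersion came from edgeR 4.0.16 and DESeq2 1.42.0 (R 4.3.3); scipy 1.17.1, pandas 2.3.3, matplotlib 3.10.9 and numpy 2.4.6 under Python 3.11.15 did the rest. The dispersion estimate and the 2-fold calls between libraries were tried on simulated data, and the other steps were not. Alternatives were other scalings, strand, count minimums, window lengths and leaving out a replicate; scaling to hairpin length was added after seeing the data.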

Additional observations from a re-analysis of the deposited data

How the results depend on the processing

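Of 124 alternative values, 108 moved by less than the replicate spread, counting interval or 1.5-fold margin that applied, and 16 moved by more. Part of this tally was fixed in advance, so it does not measure robustness. Library scalings cancel in log2 ratios between loci within a library. Leaving out a replicate always moves a mean of 2 libraries by less than their SD. In 1 scaling, reads placed at several positions were added to the total but not to the loci. With that total, Mir214, Mir199b, Mir199a-2 and Mir199a-1 had 19004, 863, 140 and 14.2 CPM, and the log2 ratio of Mir214 between pools was 0.10. Per 100 bases of hairpin, Mir214, Mir199b and Mir199a-1 had 27270, 1237 and 32.1 CPM. By library, Mir214 was at place 7 and Mir199b at 95 in replicate 2, and Mir199a-1 at 289 in replicate 1. The number of loci past 2-fold between pools was 13 when loci averaging 20 counts were admitted and 3 when 500 were required. With 25-base windows, 5 windows of Mir199b, 6 of Mir199a-2 and 7 of Mir199a-1 were shared. No paired analysis was possible because there is 1 group. Depth limits Mir199a-1 most, at 42 and 54 counts.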
